A study of Mus musculus with 15 samples.

Results

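Resting and central T cells are held in that state by a small set of transcription factors and homing or survival receptors. A list of 9 such genes (Foxo1, Klf2, Tcf7, Lef1, Bach2, Satb1, S1pr1, Ccr7 and Il7r) was followed through splenic mouse regulatory T (Treg) cells that lack 1 or both of the Ikaros-family transcription factors Helios (Ikzf2) and Eos (Ikzf4). The genes were chosen by symbol, and the brightest probe set of each was read. Of the 9, 8 had a probe set annotated with their symbol alone, 1 each, and all 8 were bright enough to be tested among 10964 genes. Tcf7 has no value here.

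The cells were CD4+CD25+ cells sorted from spleen, and each of 15 single-colour Affymetrix arrays measured amplified RNA from such a sort. The groups were dKO (both Ikzf2 and Ikzf4 deleted, 3 arrays), Ikzf4-/- (3 arrays), Ikzf2-/- (3 arrays) and wild type (WT, 6 arrays, numbered 1 to 6). The labels state neither strain, sex, age nor whether a Cre was used, and not whether arrays of a group came from separate mice. The p-values therefore measure the spread between arrays, part of which may be technical. Y-linked signal was high on some arrays and low on others within each group of the first set. No treatment was recorded for any group. Because dKO, Ikzf4-/- and WT 1 to 3 appear, by their numbering and values, to form one set of 9 arrays and Ikzf2-/- and WT 4 to 6 another of 6, WT 1 to 3 served as controls for dKO and Ikzf4-/-, and WT 4 to 6 for Ikzf2-/-. Values are log2 signals, so a difference of 1 is a 2-fold change, and levels are not comparable between genes.

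As background, Foxo1 is a forkhead factor that stays in the nucleus while growth factor signalling through Akt is low, and there it activates Klf2, Il7r and Ccr7. Klf2 is a zinc finger factor that activates S1pr1, whose product senses the lipid sphingosine 1-phosphate and lets T cells leave lymphoid organs. Ccr7 is the chemokine receptor for entry into lymph nodes and T cell zones, and Il7r is the receptor chain for the survival cytokine IL-7, usually lower on Treg cells than on conventional CD4+ T cells. Tcf7 and Lef1 encode related HMG-box factors of naive and memory-like T cells. Bach2 is a repressor that restrains effector genes such as Prdm1 and is needed for normal Treg cells, and Satb1 is a chromatin organiser of T cells. Resting Treg cells that recirculate through lymphoid organs carry more of these transcripts than effector Treg cells do.

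Ikaros-family proteins recognise DNA with a GGGAA core, so the stretches of the members' promoters that hold this core are shown. RefSeq sequence (GRCm38.p6) covered the 250 bases before the start for 7 of the 9 genes, in 15 windows, since a gene can have several starts. The first listed window of 4 measured genes read as follows, 5′ to 3′ on the gene's strand, with GGGAA, or TTCCC where the core lies on the other strand, in capitals.
Foxo1, chr3:52268241-52268265, plus strand: cgcctcccgaGGGAAggcagcgccc
Bach2, chr4:32417185-32417224, plus strand: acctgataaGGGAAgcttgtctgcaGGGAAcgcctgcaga
Bach2, chr4:32417409-32417433, plus strand: cgaacgggctTTCCCttccggtcta
Il7r, chr15:9530000-9530024, minus strand: aggagcttcaGGGAAtaccaagatg
Il7r, chr15:9529877-9529892, minus strand: atgttcatagTTCCCt
Satb1, chr17:51833364-51833440, minus strand: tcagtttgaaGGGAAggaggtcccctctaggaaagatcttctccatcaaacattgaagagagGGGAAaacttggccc

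The Foxo1 core lies between 96 and 72 bases before the start. Those of Satb1 lie between 150 and 74 bases before it. In Bach2, one stretch is far from the start (250 to 211 bases before it) and the other next to it (26 to 2 bases), and in Il7r they lie 148 to 124 and 16 to 1 bases before it. Counting both strands, GGGAA stood in 9 of 15 member windows (60%) and in 5 of the 7 genes, against 56.2% of all 32851 promoter windows of the same length, close to the share in the members. Lef1 and Klf2 had no GGGAA in their windows. The KLF core CACCC stood in 4 of the 7 genes and in 11 of 15 member windows (73.3%), against 52% of all windows. Some windows of Lef1 and of Satb1 overlap, so that a site can be counted in more than 1 window. Neither GTAAACA, a FOXO motif (3.17% of all windows), nor CTTTGAT, a TCF/LEF motif (3.21%), occurred in the 15 windows. Binding was not measured in these samples, and a match in letters is a description only.

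The arrays carried the markers of the sort. Foxp3, the Treg lineage factor, lay at 10.85 to 11.16 in the first set and at 10.10 to 10.58 in the second. The mean of 9 measured T and Treg markers, which include Ikzf2 and Ikzf4 themselves, was 10.38 to 10.53 in the first set. On Ikzf2-/- arrays 1 to 3 it was 10.25, 9.71 and 10.01, so arrays 2 and 3 lay below WT 4 to 6 (10.10 to 10.15). Of the 9, 6 had lower means in Ikzf2-/- than in WT 4 to 6 and 3 had higher ones. The genes of other cell types moved with single arrays and, for some lists, with a whole group. The mean of 12 measured B cell markers was 6.10, 5.29 and 7.75 on Ikzf2-/- arrays 1 to 3, against 5.44 to 5.67 on WT 4 to 6. In the first set it was 4.76 to 4.98 in dKO and 4.80 to 4.96 in Ikzf4-/-, against 6.98 on WT 1 and 4.92 and 4.99 on WT 2 and 3. The mean of 7 neutrophil markers was likewise highest on Ikzf2-/- 3 (9.26) and, in its set, on WT 1 (6.93). It was 6.64 and 5.95 on Ikzf2-/- 1 and 2, so the whole group lay above WT 4 to 6 (4.89 to 5.54). The mean of 3 macrophage and dendritic cell markers was 5.11 to 5.87 in Ikzf4-/-, below WT 1 to 3 (5.97 to 7.16), while dKO (5.58 to 6.30) overlapped with WT. The part of such cells in the members' values was not tested. Ikzf2-/- was the most variable group, with a median SD per gene of 0.193 against 0.0922 to 0.110 in the other groups, and array 2 got the lowest quality weight (0.127). Ikzf2 signal was 10.06, 9.14 and 9.22 in Ikzf2-/-, against 10.25, 10.38 and 10.38 on WT 4 to 6 (log2 difference -0.86, adjusted p = 0.088). In dKO it was 10.11, 10.16 and 10.59, against 10.46, 10.74 and 10.76 on WT 1 to 3, so the array labelled dKO 3 lay inside the WT range. Ikzf4 signal was 8.20, 8.07 and 8.11 in dKO and 8.22, 8.13 and 8.19 in Ikzf4-/-, against 7.83, 8.07 and 8.02 on WT 1 to 3. Where these probe sets lie relative to the deletions is not known here, and the signals do not settle the labels.

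In Treg cells lacking both factors, 7 of the 8 measured resting genes had lower mean signals than in WT 1 to 3 and Il7r had a higher one, but none passed the test. The median log2 difference of the 8 was -0.15, against 0.00 over all genes, of which 48.2% were negative. In all, 0.0638% of genes passed at an adjusted p of 0.05 (limma, Benjamini-Hochberg over all 10964 genes). The 3 arrays of each group did not overlap in 4 of the 8 genes, S1pr1, Bach2, Satb1 and Klf2, all lower in dKO. Of all genes, 4.22% were lower and 5.34% higher in this way. At an unadjusted p of 0.05, S1pr1 alone of the 8 was lower, as were 1.99% of all genes. No member was lower at that threshold without WT 1, WT 2, WT 5, Ikzf4-/- 1 or dKO 3. The same held with each array shifted to the same median. With quantile normalization or only those groups 2 were lower, and with array weights 3.

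Under Eos loss alone the log2 differences of the 8 genes ran from -0.11 (Bach2) to 0.27 (Il7r). In Ikzf4-/- against WT 1 to 3, 3 of the 8 were positive and 5 negative, with a median of -0.02 against 0.01 over all genes, and with each array shifted to the same median the split was 4 and 4. Without Ikzf4-/- 2 the median was 0.04 with 2 of 8 negative, and without WT 2 it was 0.02 with 4 negative. No member passed, nor did any other gene (0% of genes at the adjusted threshold by limma, 239 genes at an unadjusted p of 0.05, 1.16% of all genes higher and 1.02% lower). The arrays of every member overlapped, while 3.62% of all genes were higher and 2.92% lower without overlap. dKO and Ikzf4-/- share WT 1 to 3 as controls, so their differences from WT are not independent of each other.

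The comparison of dKO with Ikzf4-/- shows Helios loss in cells that already lack Eos, and its log2 differences use no WT array. Its p-values do depend on the WT arrays, because the limma error is shared by all groups. Again 7 of 8 members were negative, with a median of -0.17 against -0.00 over all genes. None passed, against 0.0274% of all genes. S1pr1 alone had arrays that did not overlap, lower in dKO, as had 4.19% of all genes, with a further 4.09% higher. S1pr1 was also the sole member under an unadjusted p of 0.05, which 1.69% of all genes reached in the lower and 1.79% in the higher direction. When WT 1, WT 2, WT 3 or WT 5 was left out of the fit, no member was under that threshold. The same held without Ikzf4-/- 1, Ikzf4-/- 3, dKO 2 or dKO 3, and with each array shifted to the same median. Without Ikzf4-/- 2 or Ikzf2-/- 2 there were 2 such members. Both dKO comparisons share the dKO arrays.

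Helios loss alone gave a mixed picture. In Ikzf2-/- against WT 4 to 6, 6 of 8 members were negative, with a median of -0.09 against 0.02 over all genes, and when each array was shifted to the same median the split was 4 and 4. The median was -0.02 without WT 6 (5 of 8 negative), -0.14 without WT 4 and -0.02 with array weights. No member passed the adjusted threshold, which 0.0638% of all genes passed. The arrays did not overlap for Satb1, lower in Ikzf2-/- (5.5% of all genes were lower in this way), and for Klf2, higher in Ikzf2-/- (10.7% of all genes were higher in this way). The same 2 genes were the only members under an unadjusted p of 0.05, which 5.45% of all genes reached in the lower and 10.9% in the higher direction. The limma error is shared by all groups, of which Ikzf2-/- was the most variable. With only those groups, quantile normalization, array weights or the B cell marker covariate, no member was higher at that unadjusted threshold. The same held without WT 4, WT 5 or Ikzf2-/- 3.

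**Figure D1:**
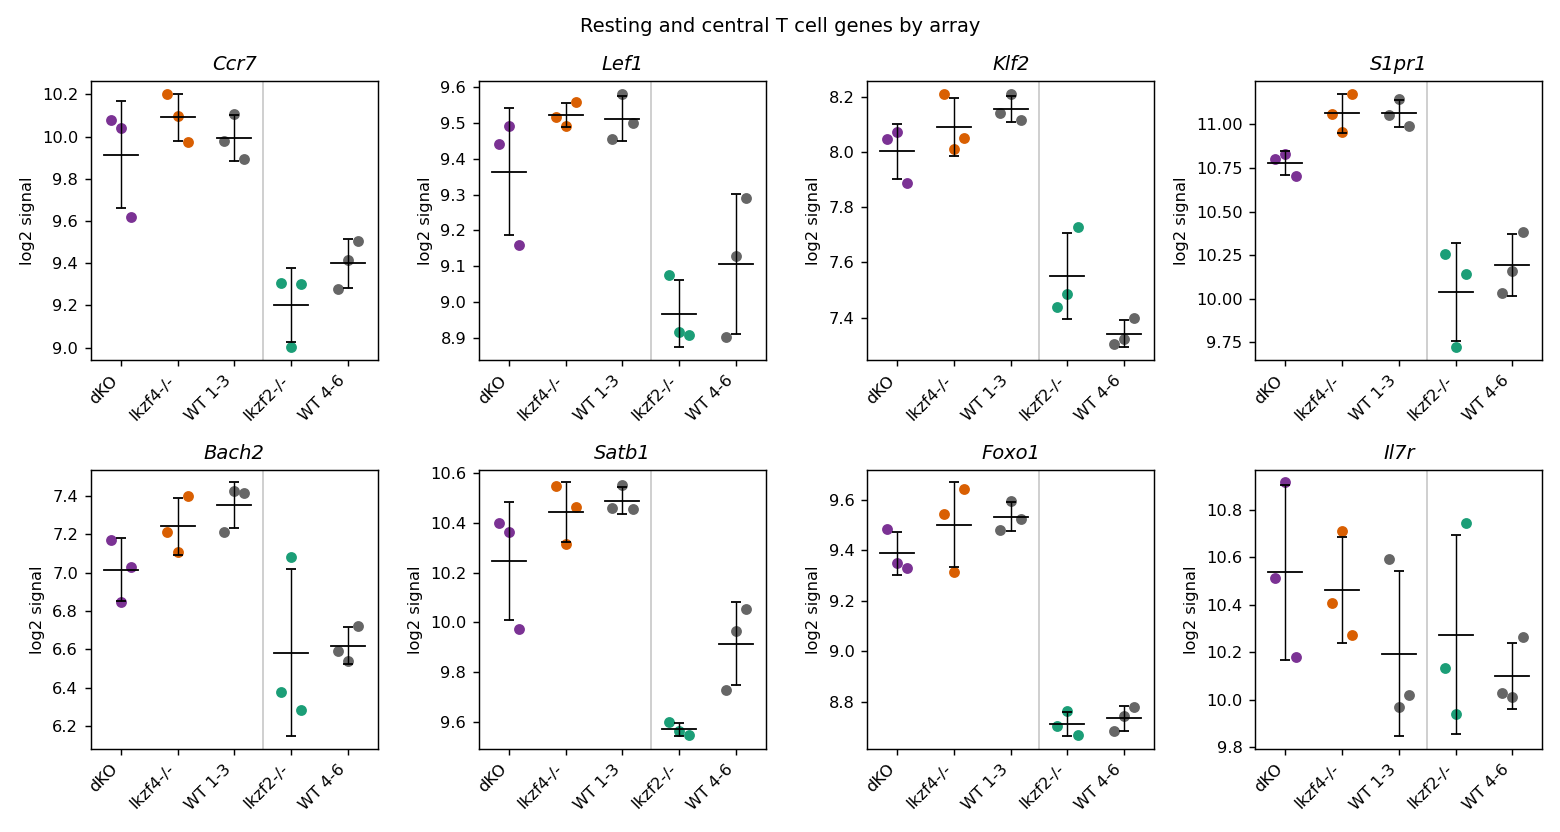
Log2 signal (y axis) of the 8 measured genes in each array, a panel per gene. Points are arrays and bars the group mean ± SD (n = 3 each), with dKO, Ikzf4-/- and WT 1 to 3 left of the divide and Ikzf2-/- and WT 4 to 6 right of it. S1pr1 in dKO (10.70 to 10.83) lies below both other groups of its set, and Satb1 in Ikzf2-/- (9.55 to 9.60) lies below WT 4 to 6.

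Among the transcription factors, Foxo1, at the head of the Klf2, Il7r and Ccr7 programme, did not differ from its controls beyond its error in any genotype. Its log2 signal was 9.49, 9.35 and 9.33 in dKO and 9.55, 9.32 and 9.64 in Ikzf4-/-, against 9.48, 9.59 and 9.53 on WT 1 to 3. It was 8.70, 8.76 and 8.67 in Ikzf2-/-, against 8.68, 8.74 and 8.78 on WT 4 to 6. All groups overlapped with their controls. The difference of dKO from WT was -0.15 (SE 0.09, 95% interval -0.33 to 0.04), that of Ikzf4-/- was -0.03 (interval -0.22 to 0.16) and that of Ikzf2-/- was -0.02 (interval -0.21 to 0.17). Adjusted p-values were 1, 1 and 0.928.

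Klf2, the activator of S1pr1, differed in direction between the 2 genotypes that lack Helios. It was 7.44, 7.48 and 7.73 in Ikzf2-/-, against 7.30, 7.32 and 7.40 on WT 4 to 6, so all 3 knockout arrays lay above the controls. The difference was 0.21 (SE 0.09, interval 0.01 to 0.41, 1.16-fold, unadjusted p = 0.0393, adjusted p = 0.277), and without Ikzf2-/- 3, the array highest in B cell and neutrophil markers, it was 0.12. In dKO it was 8.05, 8.07 and 7.89, against 8.14, 8.21 and 8.12 on WT 1 to 3, and all 3 dKO arrays lay below the controls (difference -0.15, SE 0.09, adjusted p = 1). Ikzf4-/- arrays were at 8.21, 8.01 and 8.05, within reach of both (difference -0.07). The test of the difference itself, Helios loss with Eos absent minus Helios loss with Eos present, gave -0.30 (SE 0.13, interval -0.57 to -0.02, unadjusted p = 0.0385, adjusted p = 0.781), in which 0% of genes passed and 4.49% reached an unadjusted p of 0.05 in the lower direction and 1.81% in the higher. No other member reached that unadjusted threshold in this test, the next being Satb1.

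Lef1 overlapped with its controls in every genotype. In dKO it was 9.44, 9.49 and 9.16, and in Ikzf4-/- 9.52, 9.49 and 9.56, against 9.46, 9.58 and 9.50 on WT 1 to 3. In Ikzf2-/- it was 9.08, 8.92 and 8.91, against 8.90, 9.13 and 9.29 on WT 4 to 6. The low dKO value came from the array labelled dKO 3, and without it the difference of dKO from WT was -0.05, against -0.15 (SE 0.11) with it. Its relative Tcf7, named above, was not measured.

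Bach2, the repressor of effector genes, had its lowest first-set values in dKO, at 7.17, 6.85 and 7.03. Ikzf4-/- arrays were at 7.21, 7.11 and 7.40, and WT 1 to 3 at 7.21, 7.42 and 7.41. The dKO arrays lay below all 3 WT arrays but 1 of them above the lowest Ikzf4-/- array. The difference from WT was -0.33 (SE 0.17, interval -0.70 to 0.03, 0.793-fold, unadjusted p = 0.0693, adjusted p = 1), and without the array labelled dKO 3 it was -0.34. Bach2 is also a B cell gene, and WT 1, the first-set array highest in B cell markers, had the lowest Bach2 signal of WT 1 to 3. Without WT 1 the difference was -0.40, and with each array's B cell marker mean as a covariate it was -0.50 (adjusted p = 0.325). In Ikzf2-/- the arrays were at 6.38, 7.08 and 6.29, against 6.59, 6.54 and 6.72 on WT 4 to 6, that is, 2 arrays below and 1 above all controls. That difference was -0.04 (SE 0.17, adjusted p = 0.943), and without the high array 2 it was -0.28 (adjusted p = 0.159). Array 3, the highest in B cell markers, had the lowest Bach2 signal of its set. The part of B cell RNA in the Bach2 values was not tested.

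Satb1 was the member with the most extreme value under Helios loss alone. It was 9.60, 9.56 and 9.55 in Ikzf2-/-, against 9.73, 9.96 and 10.05 on WT 4 to 6. The knockout arrays had an SD of 0.03 and all lay below the controls. The difference was -0.34 (SE 0.12, interval -0.59 to -0.10, 0.788-fold), at an unadjusted p of 0.0102 that ranked it 663 of 10964 genes and an adjusted p of 0.169. In dKO it was 10.40, 10.36 and 9.97, against 10.46, 10.55 and 10.46 on WT 1 to 3, also without overlap (difference -0.24, SE 0.12, interval -0.49 to 0.01). Without the array labelled dKO 3 that difference was -0.11. Ikzf4-/- arrays, at 10.55, 10.31 and 10.47, overlapped with WT (difference -0.05, SE 0.12). The effect of Helios loss with Eos absent minus that with Eos present was 0.15 (SE 0.16, adjusted p = 0.931).

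Of the receptors, S1pr1, the egress receptor, differed most evenly between dKO and the rest of its set. It was 10.80, 10.83 and 10.70 in dKO, against 11.06, 10.95 and 11.18 in Ikzf4-/- and 11.05, 11.15 and 10.99 on WT 1 to 3. Every dKO array lay below every other array of the set. The difference from WT was -0.29 (SE 0.13, interval -0.56 to -0.01, 0.820-fold, unadjusted p = 0.0432, adjusted p = 1), and from Ikzf4-/- it was also -0.29 (SE 0.13, unadjusted p = 0.0438, adjusted p = 1). Leaving out the array labelled dKO 3 changed these to -0.25 and -0.25. For Eos loss alone the interval ran from -0.28 to 0.28. In Ikzf2-/- the arrays were at 10.25, 9.72 and 10.14, against 10.03, 10.16 and 10.38 on WT 4 to 6, and the groups overlapped (difference -0.15, SE 0.13). That value rested on array 2, and without it the difference was 0.01.

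Ccr7, the lymph node homing receptor, was 10.08, 10.04 and 9.62 in dKO and 10.20, 10.10 and 9.98 in Ikzf4-/-, against 9.98, 10.11 and 9.89 on WT 1 to 3. It was 9.31, 9.001 and 9.30 in Ikzf2-/-, against 9.28, 9.41 and 9.51 on WT 4 to 6. All groups overlapped with their controls, and 2 of the 3 dKO arrays lay within the WT range. The difference of dKO from WT was -0.08 (SE 0.13), and it turned to 0.07 without the array labelled dKO 3. Under Helios loss alone it was -0.20 (SE 0.13, interval -0.47 to 0.08, adjusted p = 0.482).

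Il7r had the largest SD of the 8 members in all 3 groups of the first set. It was 10.51, 10.92 and 10.18 in dKO and 10.41, 10.71 and 10.27 in Ikzf4-/-, against 10.59, 9.97 and 10.02 on WT 1 to 3. In Ikzf2-/- it was 10.14, 9.94 and 10.74, against 10.03, 10.01 and 10.26 on WT 4 to 6. The SD was 0.37 in dKO, 0.22 in Ikzf4-/- and 0.35 on WT 1 to 3, and 0.42 in Ikzf2-/- against 0.14 on WT 4 to 6, and all knockouts overlapped with their controls. The mean was higher in each knockout than in its controls, by 0.34 (interval -0.15 to 0.83) in dKO, 0.27 (interval -0.22 to 0.76) in Ikzf4-/- and 0.17 (interval -0.32 to 0.66) in Ikzf2-/-, all within their error. WT 1, the first-set array highest in B cell and neutrophil markers, was the highest WT array for Il7r, and without it the dKO and Ikzf4-/- differences were 0.54 and 0.47 (adjusted p = 0.942 and 1). The Ikzf2-/- difference was -0.06 without array 3. These are bulk samples, in which fewer cells of a type and less RNA per cell cannot be told apart.

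**Figure D2:**
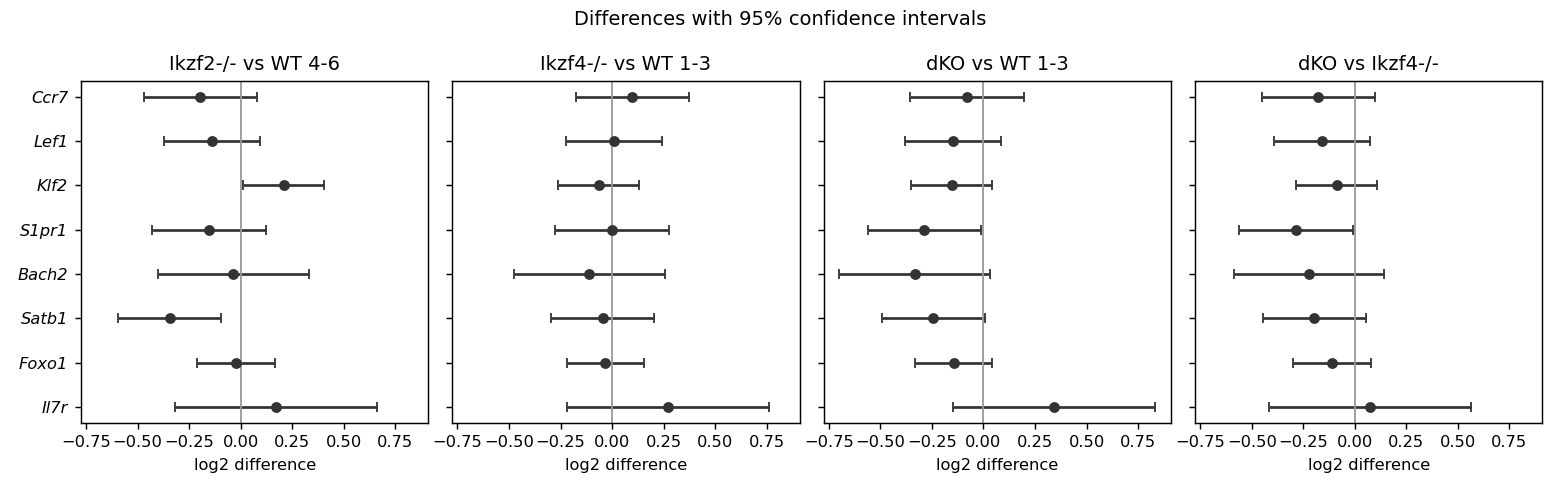
Log2 difference (x axis) of each of the 8 genes in the 4 comparisons, with 95% intervals from the limma fit, whose error is shared by all groups. The intervals exclude 0 for S1pr1 in dKO against WT 1 to 3 (-0.56 to -0.01) and against Ikzf4-/- (-0.56 to -0.01), and for Klf2 (0.01 to 0.41) and Satb1 (-0.59 to -0.10) in Ikzf2-/- against WT 4 to 6, and no adjusted p reached 0.05.

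Read by array, 1 dKO array stood out across the list. The array labelled dKO 3 lay below the WT mean in all 8 genes (median log2 difference -0.34) and was the lowest of the 9 arrays of its set in 5 of them, Ccr7, Lef1, Klf2, S1pr1 and Satb1. dKO 1 and dKO 2 lay below the WT mean in 6 of 8 genes each, with medians of -0.08 and -0.10. Without the array labelled dKO 3 the members' median in dKO against WT was -0.10 with 6 of 8 negative, and against Ikzf4-/- it was -0.06 with 7 of 8 negative. The B cell marker mean of that array was 4.84 and its neutrophil marker mean 5.78, the highest of the 3 dKO arrays for the neutrophil markers. Of the other arrays, Ikzf2-/- 2 was the lowest of its set for Ccr7, S1pr1 and Il7r and the highest for Bach2, and Ikzf2-/- 3 was the lowest for Bach2, Satb1 and Foxo1 and the highest for Klf2 and Il7r. The WT arrays of the 2 sets differed as well: WT 4 to 6 minus WT 1 to 3 was negative in all 8 genes, from -0.87 (S1pr1) to -0.09 (Il7r) on the log2 scale, with a median over all genes of -0.38.

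**Figure D3:**
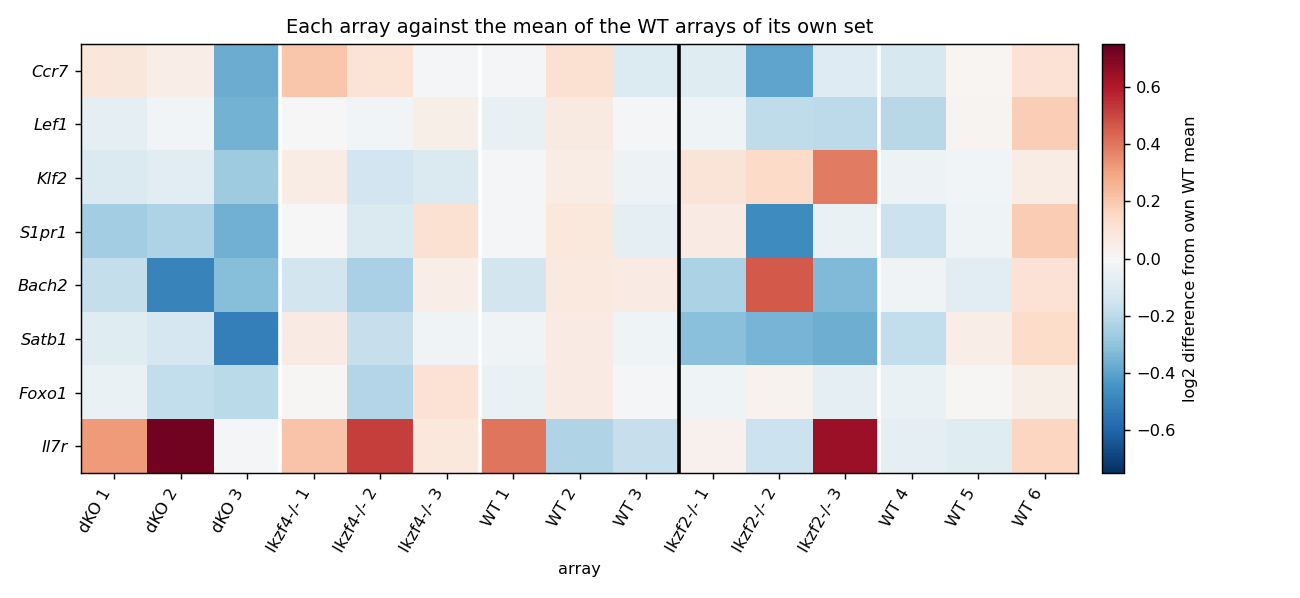
Log2 difference of each gene on each of the 15 arrays from the mean of the WT arrays of its own set (colour scale), genes in rows and arrays in columns. The array labelled dKO 3 is below 0 in all 8 rows, and Ikzf2-/- 2 and 3 have opposite signs for Bach2 and for Il7r.

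Deviations from the group means described how the members varied together over the 15 arrays, and such correlations share array quality and purity with the signals. Of the 28 pairs of members, 23 had a positive r, with a median of 0.32. The highest was Lef1 with Satb1 (r = 0.88), then Ccr7 with Satb1 (0.77), Ccr7 with Lef1 (0.73) and Lef1 with S1pr1 (0.66). The lowest was Bach2 with Il7r (-0.65), which was -0.79 over the 9 arrays of the first set alone. S1pr1 with Bach2 gave -0.47 over all 15 arrays but 0.39 over the first set. Foxo1 with Klf2, which it activates in the textbook pathway, gave 0.23.

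The genes whose signals across the 15 arrays, centred within each set, were most like each member were mostly other genes than members. Each r below was picked as among the highest of a member with all other genes tested, and none was tested. Satb1 and Lef1 were each other's most alike gene among the genes tested (r = 0.878). S1pr1 was most like Adgre5 (r = 0.919), which encodes the adhesion receptor CD97, then Map4k4 (0.889) and Stk38 (0.876). Ccr7 was most like Rasgrp1 (0.877), an activator of Ras in T cell receptor signalling. Klf2 was most like Spata2 (0.882) and Bcl2l11 (0.871), which encodes the pro-apoptotic protein Bim. Foxo1 was most like Nfrkb (0.864). Bach2 was most like Gm15401 (0.908), then Carns1 (0.906) and Klf7 (0.849). Il7r was most like Mrps14 (0.875), a mitochondrial ribosomal protein gene.

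A wider list of 33 measured genes of resting and naive T cells showed no common direction. In dKO against WT 1 to 3, 14 were positive and 19 negative (median -0.08), in Ikzf4-/- 20 and 13 (median 0.04), and in Ikzf2-/- against WT 4 to 6, 12 and 21 (median -0.07). None passed in any comparison. The 3 largest differences of this list in each of dKO and Ikzf2-/- against WT were positive. Dapl1, a marker transcript of naive T cells, differed by 0.72 (SE 0.60) in dKO and by 1.02 (SE 0.60, adjusted p = 0.426) in Ikzf2-/-, and Igfbp4, which encodes a binding protein of insulin-like growth factors, by 0.44 (SE 0.31) in dKO and by 0.59 (SE 0.31, adjusted p = 0.38) in Ikzf2-/-. The Dapl1 values rested on single arrays, dKO 2 at 7.88 and Ikzf2-/- 2 at 8.05. Slamf6, a receptor of the SLAM family, was 9.60, 9.81 and 9.91 in dKO, against 9.38, 9.21 and 9.37 on WT 1 to 3, with no overlap (difference 0.45, SE 0.09, adjusted p = 0.193). The costimulatory receptor gene Cd28, chosen after its values were seen, was 10.33, 10.43 and 10.42 in dKO, against 9.92, 10.02 and 10.04 on WT 1 to 3, again with no overlap (difference 0.40, SE 0.10, adjusted p = 0.359).

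Each of the 4 partners' lists held between 5 and 10 members in either direction in dKO and Ikzf4-/- against WT, and 2 lists were mostly positive in Ikzf2-/-. Over 14 measured genes of the FOXO pathway, which include Foxo3, Akt and phosphatidylinositol 3-kinase genes, the median difference was 0.01 in dKO against WT 1 to 3, 0.00 in Ikzf4-/- and -0.01 in Ikzf2-/- against WT 4 to 6, and none passed. Over 17 measured receptor partners and signalling genes of IL-7, CCR7 and S1P the medians were -0.01 in dKO, 0.03 in Ikzf4-/- and 0.07 in Ikzf2-/-. Over 12 TCF/LEF partners and targets they were -0.05 in dKO, -0.01 in Ikzf4-/- and 0.10 in Ikzf2-/-, where 11 were positive and 1 negative. Over 16 relatives and partners of KLF, BACH and SATB they were -0.05 in dKO, 0.03 in Ikzf4-/- and 0.12 in Ikzf2-/-. In Ikzf2-/- 14 of these were positive, 3 of them at an unadjusted p of 0.05, and 2 negative, again with none passing. Of all 10964 genes, 5971 were positive in Ikzf2-/- against WT 4 to 6, and 10.9% were higher at that unadjusted p. Prdm1, which encodes Blimp-1 and which Bach2 restrains, differed by 0.55 (SE 0.29, interval -0.07 to 1.17, adjusted p = 1) in dKO against Ikzf4-/-, the largest difference of that list there. Against WT it differed by 0.23 (SE 0.29) in dKO, by -0.32 (SE 0.29) in Ikzf4-/- and by 0.32 (SE 0.29) in Ikzf2-/-, and the groups overlapped in all 4 comparisons.

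Genes of effector Treg cells, the opposite pole of this programme, had mostly positive differences in dKO and Ikzf2-/-. Of 26 measured, 23 were positive and 3 negative in dKO against WT 1 to 3 (median 0.39), 22 and 4 in Ikzf2-/- against WT 4 to 6 (median 0.40), and 12 and 14 in Ikzf4-/- against WT 1 to 3 (median -0.02). None passed the adjusted threshold, while 11 in dKO and 8 in Ikzf2-/- were higher at an unadjusted p of 0.05, against 2.38% and 10.9% of all genes. The list was chosen with earlier results of these data known, so these counts are a description and not a test of the list. Il10, the gene of the suppressive cytokine, differed by 1.13 (SE 0.48, adjusted p = 1) in dKO and by 1.54 (SE 0.48, adjusted p = 0.148) in Ikzf2-/-, and Ccr2, a receptor of inflammatory homing, was 7.997, 8.58 and 8.38 in dKO, against 7.48, 7.06 and 5.89 on WT 1 to 3 (difference 1.51, SE 0.32, adjusted p = 0.236). The median was 0.38 without the array labelled dKO 3 and 0.26 in Ikzf2-/- without array 3, the array with the highest neutrophil and B cell markers. The part of those cells in the Ikzf2-/- values was not tested.

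**Figure D4:**
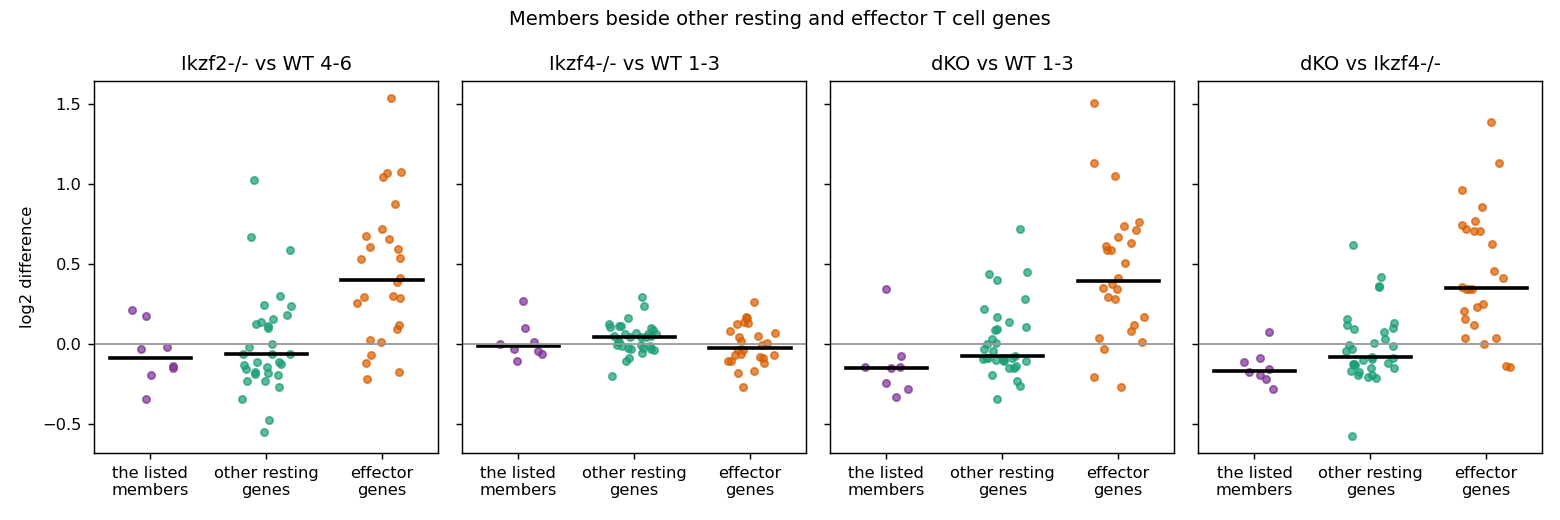
Log2 difference (y axis) of each measured gene of 3 lists (the resting and central genes, other resting and naive genes, and effector genes) in the 4 comparisons, points being genes and bars medians. Effector medians lie at 0.39, 0.40 and 0.35 in dKO against WT, Ikzf2-/- against WT and dKO against Ikzf4-/-, and the medians of the 8 resting genes at -0.15, -0.09 and -0.17. The lists were chosen with earlier results of these data known.

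Set against Ikzf2-/-, each relative to its own WT arrays, dKO differed from Helios loss alone by -0.36 in Klf2 (SE 0.13, interval -0.64 to -0.08, unadjusted p = 0.0145, adjusted p = 0.627). This was the smallest adjusted p of the members in that comparison, in which 0% of all genes passed by limma and 799 reached an unadjusted p of 0.05, 4.91% of all genes in the lower direction and 2.38% in the higher. For the others the intervals ran from -0.52 to 0.26 in S1pr1, from -0.25 to 0.45 in Satb1 and from -0.81 to 0.22 in Bach2, so differences of these sizes between both genotypes are within the error of 3 arrays a group.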

How the data were processed

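The authors deposited log2 signals for 35556 probe sets on 15 arrays. Total RNA (15 ng each) was amplified with a NuGEN kit to biotin-labelled cDNA, per the labels' protocols. Per the submitters' processing notes the signals came from Affymetrix Expression Console 1.3.1 and RMA, which compresses differences of dim genes. The labels name no batch. The division into 2 sets is inferred from the numbering of the WT arrays, and the values were compared with it: pairs of arrays shared, on average, 2286 probe sets with exactly equal deposited values (no tolerance) within the first set, 34.4 within the second and 0.0741 across them. Array medians were 4.82 to 5.01.

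Probe sets were named through the platform annotation (21789 with 1 symbol, 1621 with several and 12146 unlisted), and 21698 symbols were updated through Entrez identifiers. The probe set with the highest mean stood for a gene. Genes with a group mean above log2 4.96, the median over probe sets, were tested: 10964 of 19938. A limma 3.58.1 fit in R 4.3.3 with 5 group means on all 15 arrays gave differences, intervals and p-values (10 residual degrees of freedom), adjusted by the Benjamini-Hochberg method over all genes tested. Precision is limited by the number of arrays. The fit was run on simulated data with independent noise for each gene and no array-wide effects. That check was on the mean size of the added changes, not on the calls. Named genes were all members and, of each further list, those with the largest log2 difference in a comparison. The members and lists were chosen with earlier results of these data known. The labels tie no replicate number to an animal or day. Deviations from the group means of same-numbered arrays correlated at 0.196 to 0.428 between dKO and Ikzf4-/-, at 0.138 to 0.303 between Ikzf4-/- and WT 1 to 3, and at 0.0450 to 0.173 between dKO and WT 1 to 3. The fit has no block in any comparison, and the block was run as an alternative on the 9 arrays of the first set. Alternatives covered scaling, filters, array weights, covariates, pooled WT arrays, a replicate block and leaving out arrays.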

Additional observations from a re-analysis of the deposited data

Results flagged for a closer look

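Klf2 moved in opposite directions in 2 pairs of comparisons when each array was set against the mean of its comparison group. It was lower in all dKO arrays than in WT 1 to 3 (difference -0.15) and higher in all Ikzf2-/- arrays than in WT 4 to 6 (difference 0.21). Relative to the mean of Ikzf4-/-, dKO was lower as well, again opposite to the 0.21 of Ikzf2-/-. That difference was -0.088 (SE 0.09), within its error, and the arrays of dKO and Ikzf4-/- overlapped. The difference between the responses was tested by limma and did not pass: dKO minus Ikzf2-/-, each relative to its own WT arrays, was -0.36 (adjusted p = 0.627), and Helios loss with Eos absent minus Helios loss with Eos present was -0.30 (adjusted p = 0.781). With the B cell marker mean as a covariate the difference of dKO from WT was -0.11 and that of Ikzf2-/- from WT 0.16.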

How the results depend on the processing

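No member passed the adjusted threshold in dKO against WT 1 to 3, Ikzf4-/- against WT 1 to 3, dKO against Ikzf4-/-, Ikzf2-/- against WT 4 to 6 or Helios loss with Eos absent against present, under any alternative run. In dKO against Ikzf2-/-, 4 members passed when all 6 WT arrays were pooled, as did 3656 of all 10964 genes. Pooling leaves the difference between the sets in the comparison. The 4 were Ccr7 0.71 (adjusted p = 0.0325), Satb1 0.68 (0.0325), and, with their sign turned, Foxo1 0.68 (0.0407) and S1pr1 0.74 (0.046). Of 1344 values of single members, 1307 kept their direction or moved within 1 SD, 33 moved, 2 newly passed and 2 reversed. With WT pooled, all 8 members were positive in dKO against WT (median 0.18, against 0.20 over all genes).

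The number of genes passing moved more. In Ikzf2-/- against WT 4 to 6 (7 genes) it was 20 with quantile normalization, 1 at equal array medians, 2 with no filter, 27 with a stricter filter, 0 with only those groups, 64 with array weights, 3 with the B cell marker covariate, 3 without WT 1 and Ikzf2-/- 3, 0 with the Eif2s3y covariate, 0 with WT pooled and 32 without dKO 3 and Ikzf2-/- 2, and leaving out 1 array gave 0 to 409 (409 without Ikzf2-/- 1). In dKO against WT 1 to 3 (7 genes), quantile normalization gave 2, equal medians 0, no filter 0, a stricter filter 4, only those groups 1, array weights 21, without WT 1 and Ikzf2-/- 3 gave 2, the Eif2s3y covariate 0, WT pooled 4 and without dKO 3 and Ikzf2-/- 2 gave 3, and leaving out 1 array 0 to 9. In dKO against Ikzf4-/- (3 genes), quantile normalization, equal medians, no filter, the Eif2s3y covariate and WT pooled each gave 0, the mean of all probe sets 7, only those groups 1, array weights 21 and the 9 arrays of the first set without a block 1, and leaving out 1 array 0 to 11. Leaving out 1 array gave 0 to 1 in Ikzf4-/- against WT 1 to 3, 0 to 4 in Helios loss with Eos absent against present, and 0 to 2 in dKO against Ikzf2-/-. From 0 genes, the test with Eos absent against present gave 1 with array weights and 1 without WT 1 and Ikzf2-/- 3, and dKO against Ikzf2-/- gave 1 with array weights, 1 with the B cell covariate, 2 without WT 1 and Ikzf2-/- 3, 1 without dKO 3 and Ikzf2-/- 2 and 3656 with WT pooled. The causes were not tested. The 9-array fit without a block and the fit without dKO 3 and Ikzf2-/- 2 were chosen after seeing the data.

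With the replicate number as a block over the 9 arrays of the first set, 1 gene passed in dKO against WT 1 to 3 and 2 in dKO against Ikzf4-/-, and S1pr1 in dKO against WT 1 to 3 had an adjusted p of 0.4. In Ikzf4-/- against WT 1 to 3 it gave 0 genes, and the block changed no call of a member.

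Eif2s3y, a Y-linked gene, was 8.17 on WT 3 and 7.94 to 8.81 on Ikzf4-/- 3 and dKO 2 and 3, and at most 3.09 on the other arrays. It was thus high on more arrays of dKO than of Ikzf4-/- or of WT 1 to 3. With its signal as a covariate, S1pr1 in dKO against WT 1 to 3 was -0.29 and Satb1 -0.21. No member then reached the unadjusted threshold in dKO against WT 1 to 3 or against Ikzf4-/-. Without the covariate, S1pr1 alone had reached it in both comparisons.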
